A study of Mus musculus with 2 samples.

Results

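The 42 genes described here act in mitosis, from the onset of division to the separation of the daughter cells. They were found by gene name among 41174 gene probes of a mouse array, where they had 70 probes of 60 bases. The array compared cells of the pyloric stomach, the outlet region towards the intestine, from mice that all carry the Lgr5-EGFP-ires-CreERT2 knock-in, in which green fluorescent protein (GFP) and an inducible Cre recombinase are expressed from the Lgr5 locus. Pyloric tissue of 20 mice was pooled, made into single cells and sorted into GFPhigh cells and GFPlow cells. No mouse age, sex or treatment is given in the labels, and both populations carry the same alleles. One RNA sample of each population was measured on 2 arrays with exchanged dyes. GFPhigh RNA carried Cy3 on array 1 and Cy5 on the other array. The 2 arrays are therefore 1 replicate, the populations could not be tested against each other, and every SD below covers the 2 arrays (n = 2) and technical error only.

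In mitosis the chromosomes condense, attach through their kinetochores to the microtubules of the spindle and are pulled apart once every chromosome is attached. Cyclin-dependent kinase 1 with its cyclins drives entry, Aurora and Polo kinases build and correct the spindle, and the anaphase-promoting complex ends mitosis by marking cyclins and securin for destruction. Most genes of this machinery are transcribed late in the cell cycle, so their messenger RNA is abundant in dividing populations and scarce in resting ones. In the pylorus, dividing cells are known from the isthmus of the gland, and Lgr5 marks cells at the gland base, which divide as well.

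The populations were first checked by Lgr5, the gene that drives GFP. Its normalised intensity was 924.0 on array 1 and 709.0 on array 2 in GFPhigh cells, against 184.2 and 150.4 in GFPlow cells, a log2 ratio of 2.28 ± 0.06. Both arrays thus carried the direction of the sort. Epithelial markers were detected in both populations: 6 of 7 were measured, with a median log2 ratio of -0.16 and a range of -2.24 to 0.12, and 1 (Krt19, -2.24 ± 0.04) was called lower by the rule given below. The epithelial markers' summed intensity was 64098.6 and 86538.6 in GFPhigh cells against 113276.3 and 82001.4 in GFPlow cells. Of the leukocyte markers 1 of 7 was measured, of the fibroblast markers 1 of 5, of the endothelial markers 1 of 4 and of the muscle markers 2 of 4, and none of these reached the call described below.

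Ratios are log2 of GFPhigh over GFPlow, so a negative value means less signal in GFPhigh cells. Signals were background-corrected with an added offset of 50, which pulls the ratios of dim probes towards 0. A gene counted as measured where the population with more signal exceeded background clearly (the scanner software's flag) on each array, and was called where the ratio was at least 2-fold in the same direction on both. By this call 22 of the 34 measured mitotic genes were lower in GFPhigh cells and 0 were higher. Over all 7829 measured genes 2.70% were called lower and 1.76% higher. The median of the 34 was -1.30 (array 1, -1.38; array 2, -1.46), against -0.06 over all genes. These ratios cannot separate a smaller share of dividing cells from less RNA per cell, which cannot be told apart in bulk samples. The share of dividing cells in each population was not measured.

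The filter bears on these counts. All 34 genes were above background on both arrays in GFPlow cells. In GFPhigh cells 6 of them (Bub1, Ccnb1, Cenpf, Ect2, Nuf2 and Nusap1) were above background on 1 array and 12 on neither. All of these entered through their GFPlow signal alone, so their direction is no support. The other 16 were detected in each population on each array, and all 16 were called lower, with ratios between -2.28 and -1.25 and a median of -1.86. Among all 6225 genes detected in both populations on both arrays, 2.23% were called lower and the median was 0.04. In GFPhigh cells 23 of the 42 genes had a probe above background on array 1 and 16 on array 2, against 34 and 36 in GFPlow cells. Across all probes the share above background was 28.6% on array 1 and 18.7% on array 2 in GFPhigh cells, against 25.1% and 31.7% in GFPlow cells.

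**Figure D1:**
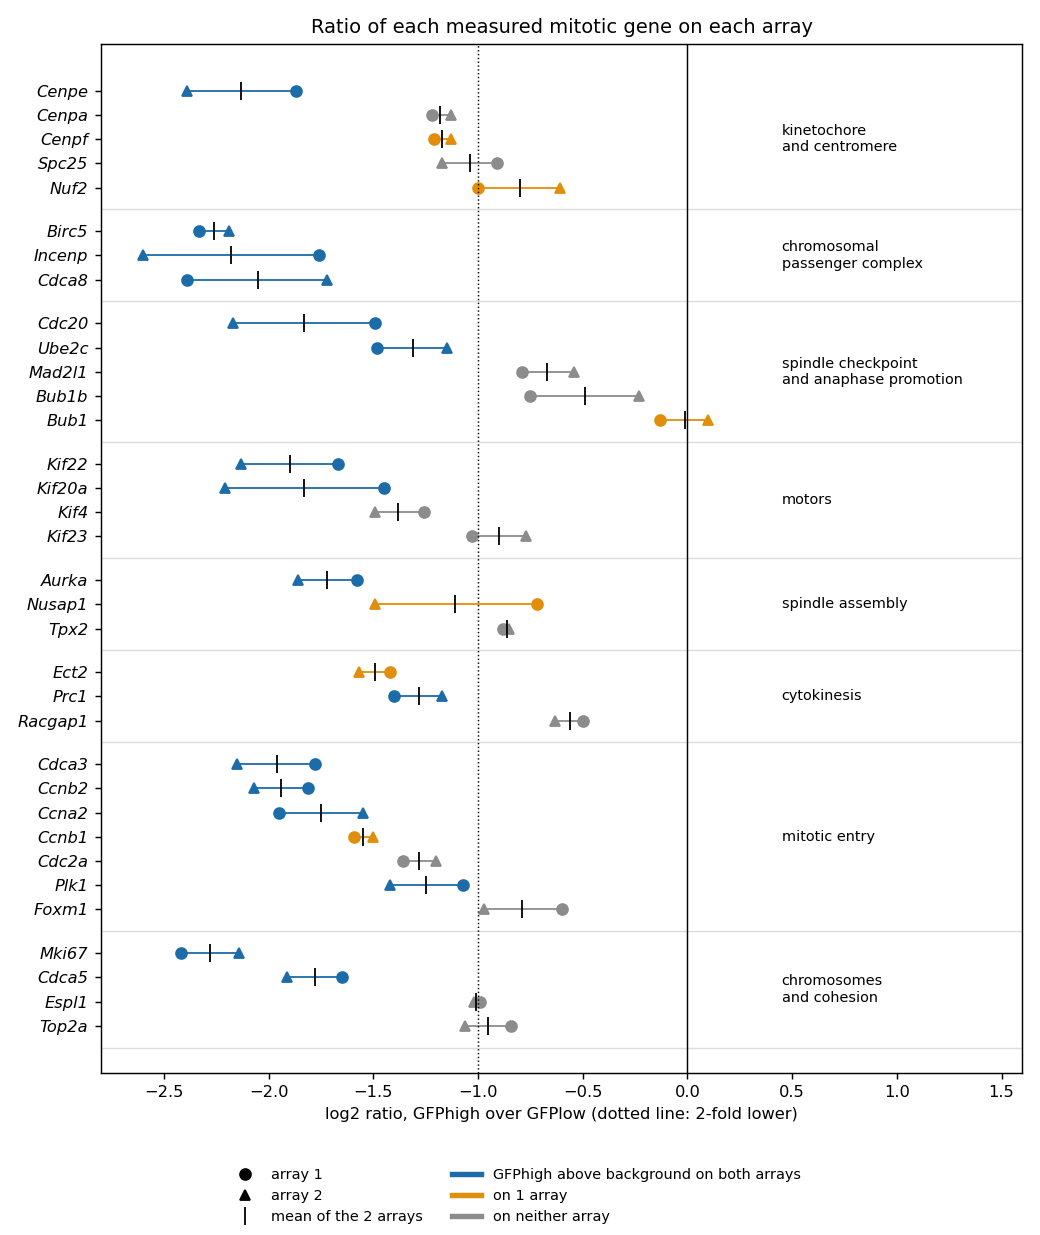
Log2 ratio of GFPhigh over GFPlow for the 34 measured mitotic genes, by function. Circles show array 1, triangles array 2, vertical ticks their mean, and colours the number of arrays on which GFPhigh was above background. Bub1 alone lies on both sides of 0, and Mki67, Birc5 and Incenp have the lowest means.

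The promoters are shown before the values because genes of this programme are known for 2 short elements near their start. The cell cycle genes homology region (CHR), written TTTGAA, is the contact of the MuvB complexes that repress these genes in resting cells and activate them late in the cycle. The CCAAT box, written CCAAT, is bound by the factor NF-Y. In RefSeq sequence of GRCm38.p6, windows from 250 bases before to 50 bases after the annotated start were searched on both strands, and 35 members had 37 windows. Only these exact letters were searched, so other spellings of either element were not counted. The other 7, Aurkb, Ccna2, Cdc25c, Foxm1, Incenp, Kif20a and Tpx2, were without a window in the table.

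A CHR was present in 81.1% of the members' windows, against 17.9% of all 32851 windows. A CCAAT box was present in 78.4% of the members' windows, against 37.4% of all windows. Both were present in 70.3% of the members' windows, against 6.95% of all windows. These shares describe letters in a window and are not evidence of binding.

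The 250 bases before the start are printed for Mki67, Cdc20, Ccnb2, Kif22 and Ube2c, called genes with both elements upstream of the start. They are also printed for Birc5, a called gene whose window held neither of the searched spellings. Capitals mark every CHR and CCAAT match on either strand (reverse strand matches read TTCAAA and ATTGG), and all sequences run 5′ to 3′ in the direction of transcription. Mki67 lies at chr7:135716380-135716629 (- strand), Cdc20 at chr4:118437344-118437593 (- strand), Ccnb2 at chr9:70421555-70421804 (- strand), Kif22 at chr7:127042421-127042670 (- strand), Ube2c at chr2:164769679-164769928 (+ strand) and Birc5 at chr11:117848987-117849236 (+ strand).
Mki67: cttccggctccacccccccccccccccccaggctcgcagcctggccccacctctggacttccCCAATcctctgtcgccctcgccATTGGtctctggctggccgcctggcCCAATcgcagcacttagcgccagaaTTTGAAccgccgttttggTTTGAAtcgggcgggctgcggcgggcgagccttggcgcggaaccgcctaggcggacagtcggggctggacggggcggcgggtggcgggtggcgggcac
Cdc20: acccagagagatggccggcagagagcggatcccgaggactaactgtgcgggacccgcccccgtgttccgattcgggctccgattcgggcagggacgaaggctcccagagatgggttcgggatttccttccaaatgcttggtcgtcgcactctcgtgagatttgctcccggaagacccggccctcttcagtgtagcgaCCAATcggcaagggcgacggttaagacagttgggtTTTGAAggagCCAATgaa
Ccnb2: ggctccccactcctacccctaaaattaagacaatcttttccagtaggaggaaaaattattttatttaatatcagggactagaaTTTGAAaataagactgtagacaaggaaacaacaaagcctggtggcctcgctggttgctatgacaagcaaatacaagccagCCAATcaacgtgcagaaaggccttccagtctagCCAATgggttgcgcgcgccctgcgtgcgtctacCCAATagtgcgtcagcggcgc
Kif22: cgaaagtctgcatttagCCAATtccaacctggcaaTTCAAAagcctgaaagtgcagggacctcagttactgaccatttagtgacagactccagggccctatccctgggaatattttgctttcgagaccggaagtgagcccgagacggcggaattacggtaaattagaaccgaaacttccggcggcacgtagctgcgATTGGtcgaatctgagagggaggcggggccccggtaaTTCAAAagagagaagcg
Ube2c: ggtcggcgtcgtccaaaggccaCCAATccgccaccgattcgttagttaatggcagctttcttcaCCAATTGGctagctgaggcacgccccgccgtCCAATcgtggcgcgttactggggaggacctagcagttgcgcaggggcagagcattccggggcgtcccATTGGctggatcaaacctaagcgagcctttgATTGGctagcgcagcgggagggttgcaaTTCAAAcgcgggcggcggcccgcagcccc
Birc5: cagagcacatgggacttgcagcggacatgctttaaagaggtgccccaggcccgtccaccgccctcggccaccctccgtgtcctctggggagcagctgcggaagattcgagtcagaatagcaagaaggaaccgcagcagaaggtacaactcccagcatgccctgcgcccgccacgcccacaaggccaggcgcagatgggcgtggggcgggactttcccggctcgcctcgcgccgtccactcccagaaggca

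Position -1 is the base just before the start and each position is that of a match's first base. Cdc20 had CCAAT boxes at -53 and -8 with a CHR at -18 between them. Ccnb2 had CCAAT boxes at -87, -54 and -21, with 1 CHR upstream of them at -167 and another past the start. Mki67 had its elements farther out, with CCAAT boxes at -188, -166 and -141 and CHR matches at -116 and -98. Kif22 carried its proximal pair at -54 (CCAAT) and -17 (CHR), both on the reverse strand. Ube2c had 6 CCAAT boxes, of which those at -186 and -183 overlap on opposite strands, and a CHR at -29.

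**Figure D2:**
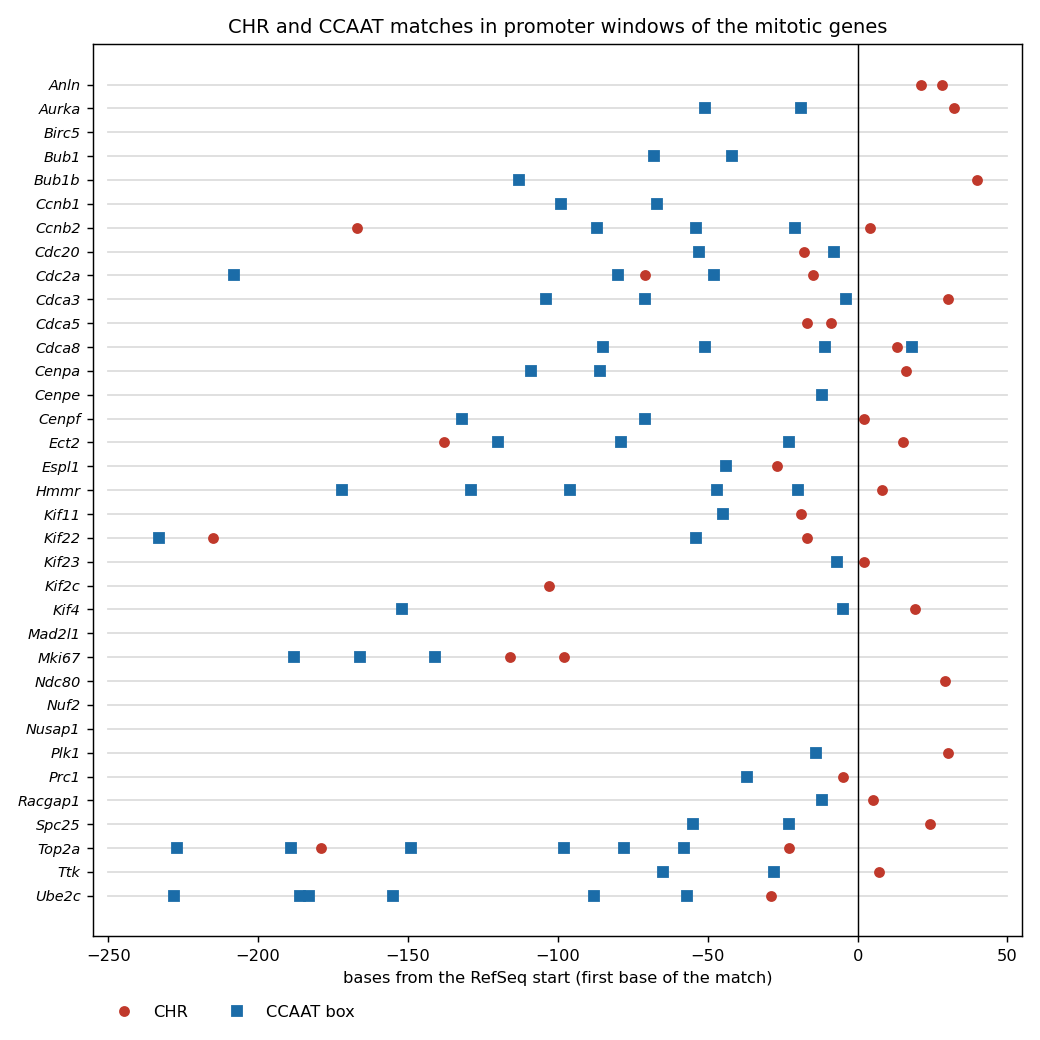
Matches of the CHR (circles) and of the CCAAT box (squares) in the promoter windows of the 35 mitotic genes with a window, by distance in bases from the RefSeq start. Where a gene has several windows the one with the lower coordinates is drawn. Birc5, Mad2l1, Nuf2 and Nusap1 have neither of the searched spellings in the window drawn.

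Among genes of chromosomes and cohesion, Mki67 had the lowest ratio of all members. Mki67 encodes Ki-67, which coats mitotic chromosomes and serves as a proliferation marker. Its normalised intensity was 266.3 and 324.1 in GFPhigh cells, against 1428.9 and 1424.1 in GFPlow cells. The 2 arrays did not overlap between the populations, and the log2 ratio of -2.28 ± 0.20 is 4.86-fold lower. How many of all measured genes lacked overlap was not counted, here or for the genes below, so a lack of overlap is a description and no support. Among all measured genes Mki67 ranked 27 from the lowest ratio.

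Cdca5 encodes sororin, which holds sister chromatids together through cohesin. It had 408.4 and 397.5 in GFPhigh cells against 1277.5 and 1492.2 in GFPlow cells, a log2 ratio of -1.78 ± 0.19. Top2a, the topoisomerase that untangles sister chromatids, and Espl1, the separase that cuts cohesin, were not called and were not well above background in GFPhigh cells on either array. Top2a had 94.0 and 94.0 in GFPhigh cells against 168.3 and 195.4 in GFPlow cells, a log2 ratio of -0.95 ± 0.15. Espl1 had 85.8 and 85.8 in GFPhigh cells against 171.0 and 173.7 in GFPlow cells, with ratios of -0.99 and -1.02, so that array 1 alone kept it from the call. As bounds over the mean of the 2 arrays, Top2a was at least 1.76-fold and Espl1 at least 1.67-fold lower in GFPhigh cells. Here and below, such a bound holds for that mean under the processing described, and a single array can give a smaller fold. The group of 4 had a median of -1.39.

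All 3 measured members of the chromosomal passenger complex were called. This complex of the kinase Aurkb with Incenp, Birc5 (survivin) and Cdca8 (borealin) corrects faulty attachments and later acts at the cleavage site. Birc5 had 593.1 and 619.1 in GFPhigh cells against 2973.2 and 2824.0 in GFPlow cells, a log2 ratio of -2.26 ± 0.10. Incenp, the scaffold, had 637.4 and 422.8 in GFPhigh cells against 2155.3 and 2556.7 in GFPlow cells, a log2 ratio of -2.18 ± 0.59. Cdca8 had 452.0 and 603.0 in GFPhigh cells against 2364.6 and 1984.8 in GFPlow cells, a log2 ratio of -2.05 ± 0.47. The populations were apart on both arrays for each of the 3, though the arrays differed from each other by more for Incenp and Cdca8 than for Birc5. Aurkb was not measured, being above background in GFPlow cells on array 2 alone. The median of -2.18 was the lowest of the 8 functional groups with the offset. This rank depended on how dim signals were treated. With the software's own processed signals, which carry no offset, the median of the complex was -2.33. Those of chromosomes and cohesion (-2.51), motors (-2.37) and spindle assembly (-2.37) were then lower.

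Of the kinetochore and centromere genes, 3 of 5 measured were called and the median was -1.17. In GFPhigh cells 1 of the 5 (Cenpe) was above background on both arrays, 2 on 1 array and 2 on neither. Cenpe encodes a kinetochore motor that moves chromosomes to the spindle equator. It had 360.3 and 343.0 in GFPhigh cells against 1312.9 and 1795.4 in GFPlow cells, a log2 ratio of -2.13 ± 0.37. Cenpa, the histone H3 variant that marks the centromere, had 96.4 and 95.4 in GFPhigh cells against 225.1 and 209.2 in GFPlow cells, a log2 ratio of -1.18 ± 0.06. Cenpa was not well above background in GFPhigh cells on either array and was at least 2.11-fold lower there. Cenpf, a large protein of the outer kinetochore, had 127.7 and 144.4 in GFPhigh cells against 295.7 and 316.2 in GFPlow cells, a log2 ratio of -1.17 ± 0.06. None of the 3 had overlapping readings, though Cenpa and Cenpf entered through their GFPlow signal alone.

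The microtubule-binding Ndc80 complex was covered less well. Nuf2 had 120.0 and 192.9 in GFPhigh cells against 240.5 and 293.6 in GFPlow cells, a log2 ratio of -0.80 ± 0.28. Spc25 had 114.5 and 90.9 in GFPhigh cells against 214.6 and 204.6 in GFPlow cells, a log2 ratio of -1.04 ± 0.19. Neither was called. For both every GFPhigh reading lay below every GFPlow reading, but both entered through their GFPlow signal alone, so this is no support. Spc25 was not well above background in GFPhigh cells. Over the mean of the arrays it was at least 1.92-fold lower there, with -0.91 on array 1. Ndc80 itself was not measured.

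The spindle checkpoint holds anaphase back until all kinetochores are attached, and none of its 3 measured genes was called. Bub1b (BubR1) had ratios of -0.75 and -0.23, and Mad2l1 (Mad2), which sequesters Cdc20, had ratios of -0.79 and -0.54. Neither was called or well above background in GFPhigh cells on either array. Bub1, a checkpoint kinase at the kinetochore, had 160.1 and 124.7 in GFPhigh cells against 175.0 and 116.3 in GFPlow cells. On this probe the populations overlapped, with ratios of -0.13 and 0.10, and Bub1 was above background in GFPhigh cells on 1 array only. Another Bub1 probe, which the filter did not keep, had ratios of -0.24 and -1.03. That probe was above background in GFPlow cells on 1 array and in GFPhigh cells on neither. Ttk (Mps1) was not measured.

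The activators of anaphase in the same group were called. Cdc20, which the checkpoint restrains and which activates the anaphase-promoting complex, had 1050.5 and 938.4 in GFPhigh cells against 2942.0 and 4229.9 in GFPlow cells, a log2 ratio of -1.83 ± 0.49. Ube2c, the ubiquitin-conjugating enzyme of that complex, had 232.6 and 294.1 in GFPhigh cells against 650.3 and 651.0 in GFPlow cells, a log2 ratio of -1.31 ± 0.24. Both were detected in each population on each array. The group's median was -0.67, the nearest to 0 of the 8 groups. In GFPhigh cells 2 of its 5 measured genes were above background on both arrays, 1 on 1 array and 2 on neither. With processed signals the group had -1.48, next to cytokinesis at -1.57. Among genes detected in both populations its median was -1.57, and cytokinesis at -1.28 (Prc1 alone) was then nearer to 0.

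**Figure D3:**
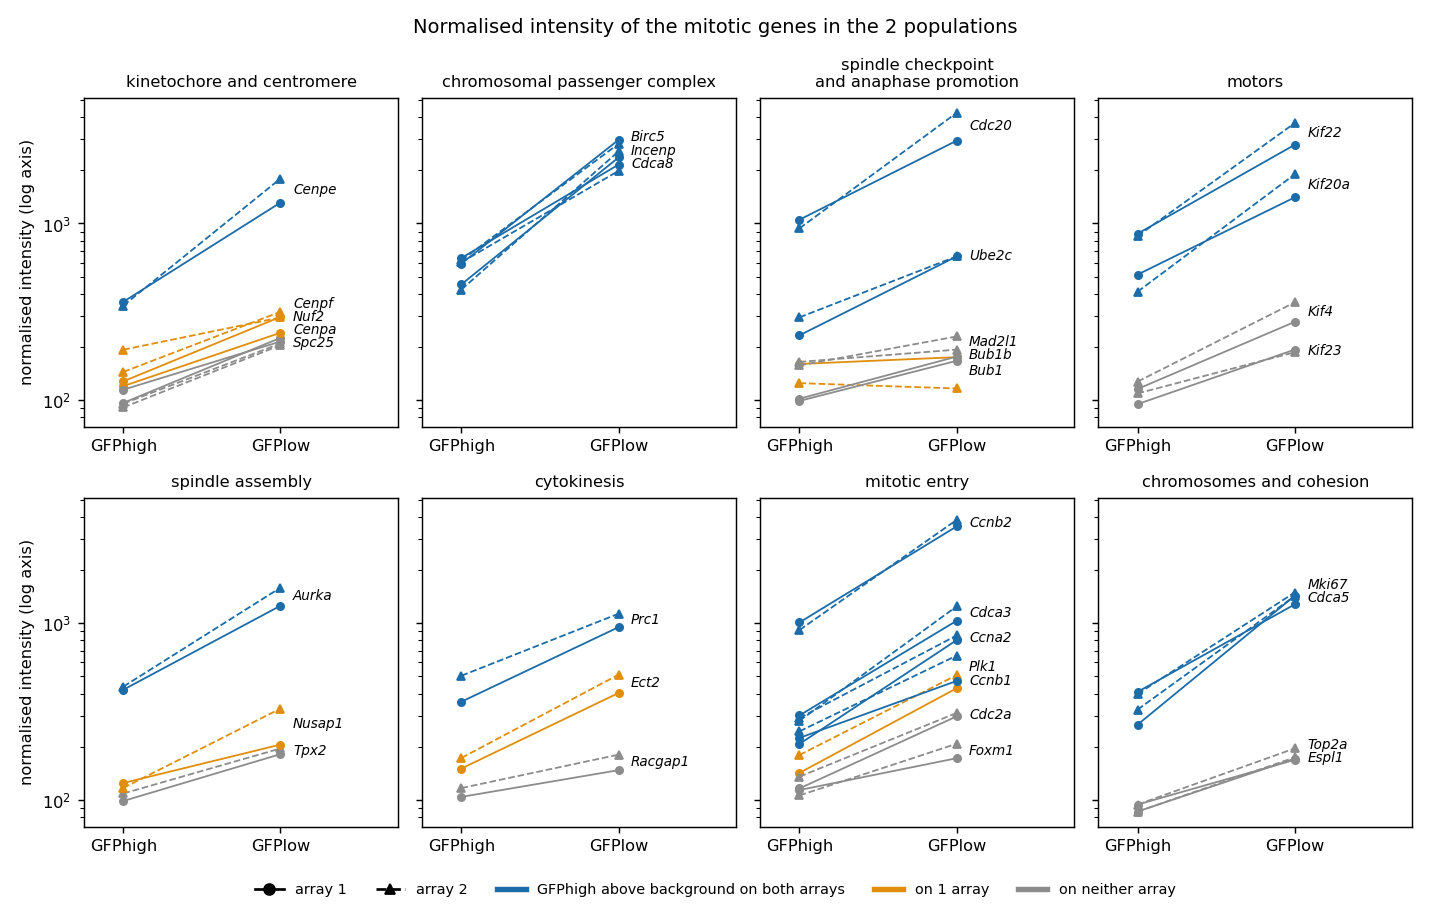
Normalised intensity (log axis) of the 34 measured mitotic genes in GFPhigh cells (left) and GFPlow cells (right) of each panel, by function. Solid lines with circles show array 1, dashed lines with triangles array 2, and colours the number of arrays on which GFPhigh was above background. Lines climb to GFPlow for every gene except Bub1, whose 2 arrays run in opposite directions.

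Of the spindle motors 3 of 4 measured were called. Kif22, a chromokinesin that pushes chromosome arms outward, had 875.0 and 847.7 in GFPhigh cells against 2788.6 and 3698.7 in GFPlow cells, a log2 ratio of -1.90 ± 0.32. Kif20a, which brings passenger proteins to the central spindle, had 513.5 and 410.8 in GFPhigh cells against 1404.9 and 1896.9 in GFPlow cells, a log2 ratio of -1.83 ± 0.53. Kif4, a chromokinesin of the central spindle, had 115.5 and 127.2 in GFPhigh cells against 277.1 and 357.2 in GFPlow cells, a log2 ratio of -1.38 ± 0.16. Kif4 was not well above background in GFPhigh cells. Its bound of 2.60-fold lower is the measured mean fold, and array 1 gave the smaller ratio of -1.26.

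Kif4 was also read by another probe, which shares 20 bases with the first on chromosome X, so the 2 are not independent readings. That probe gave 85.0 and 86.8 in GFPhigh cells against 142.6 and 163.9 in GFPlow cells, a log2 ratio of -0.83 ± 0.12. The shared bases, shown because they limit what the second probe adds, are as follows.
Kif4 shared bases: aaagaggaggaccttggctg

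Kif23, the motor of the centralspindlin complex, had 94.8 and 109.0 in GFPhigh cells against 193.0 and 186.5 in GFPlow cells, a log2 ratio of -0.90 ± 0.18, and was not called. It was not well above background in GFPhigh cells. Over the mean of the arrays it was at least 1.81-fold lower there, with -0.77 on array 2. Kif11, which pushes the spindle poles apart, and Kif2c, which removes tubulin at kinetochores, were not measured, although Kif2c was above background in GFPlow cells on array 2. The median of the motors was -1.60.

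Of the genes for spindle assembly, Aurka was called. Aurka, the Aurora kinase of the spindle poles, had 420.2 and 437.6 in GFPhigh cells against 1256.0 and 1589.7 in GFPlow cells, a log2 ratio of -1.72 ± 0.20. Nusap1, which bundles microtubules near chromosomes, had 124.5 and 116.8 in GFPhigh cells against 205.5 and 328.6 in GFPlow cells. Its ratios of -0.72 and -1.49 (mean -1.11 ± 0.54) differed by more between the arrays than those of most members. Tpx2, the activator of Aurka, had ratios of -0.88 and -0.85 and was at least 1.80-fold lower in GFPhigh cells, where it was not well above background. Hmmr, a pole-focusing factor, was not measured, and the group's median was -1.11.

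Of the cytokinesis genes, 2 of 3 measured were called. In GFPhigh cells Prc1 was above background on both arrays, Ect2 on 1 array and Racgap1 on neither. Ect2, the exchange factor that activates RhoA at the cleavage furrow, had 150.4 and 172.7 in GFPhigh cells against 402.6 and 511.2 in GFPlow cells, a log2 ratio of -1.49 ± 0.10. Prc1, which cross-links antiparallel microtubules in the central spindle, had 359.4 and 504.4 in GFPhigh cells against 949.6 and 1131.8 in GFPlow cells, a log2 ratio of -1.28 ± 0.17. Racgap1, the partner of Kif23 in centralspindlin, had ratios of -0.50 and -0.63 and was not called. Its level in GFPhigh cells was not well above background, and its bound of 1.48-fold lower there is the measured mean fold. Anln (anillin), a scaffold of the contractile ring, was not measured, and the group's median was -1.28.

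Of the genes for mitotic entry, 6 of 7 measured were called and the median was -1.55. In GFPhigh cells 4 of the 7 were above background on both arrays, 1 (Ccnb1) on 1 array and 2 on neither. Ccnb2 and Ccnb1, the B-type cyclins that activate Cdk1, were both called lower. Ccnb2 had 1010.3 and 914.7 in GFPhigh cells against 3531.3 and 3845.3 in GFPlow cells, a log2 ratio of -1.94 ± 0.19. Ccnb1 had 142.1 and 179.3 in GFPhigh cells against 428.0 and 508.2 in GFPlow cells, a log2 ratio of -1.55 ± 0.06. Ccna2, cyclin A2, which acts in replication and in mitotic entry, had 207.2 and 290.7 in GFPhigh cells against 801.7 and 852.2 in GFPlow cells, a log2 ratio of -1.75 ± 0.28. Each of the 3 cyclins had every GFPhigh reading below every GFPlow reading, though Ccnb1 entered through its GFPlow signal alone.

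Cdk1, named Cdc2a on the array, is the kinase partner of these cyclins. It had 116.0 and 135.3 in GFPhigh cells against 296.8 and 310.3 in GFPlow cells, a log2 ratio of -1.28 ± 0.11. It was not well above background in GFPhigh cells. Its bound of 2.42-fold lower is the measured mean fold, and array 2 gave the smaller ratio of -1.20. Plk1, the Polo kinase, had 224.3 and 244.3 in GFPhigh cells against 471.2 and 655.4 in GFPlow cells, a log2 ratio of -1.25 ± 0.25. Cdca3, known from frog egg extracts to trigger mitotic entry through degradation of Wee1, had 300.7 and 280.2 in GFPhigh cells against 1031.9 and 1244.2 in GFPlow cells, a log2 ratio of -1.96 ± 0.26. None of these 3 kinases and regulators had overlapping readings, though Cdc2a entered through its GFPlow signal alone. Foxm1, the transcription factor of late cell cycle genes, had ratios of -0.60 and -0.97 and was not called. It was not well above background in GFPhigh cells, and its bound of 1.72-fold lower there is the measured mean fold. Cdc25c, the phosphatase that activates Cdk1, was not measured.

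The measurement of Cdc2a and Top2a rests on probes whose 60 bases are split over 2410 and 815 bases of mm9, so that they can pair in full only with a spliced messenger RNA. The Cdc2a probe lies within chr10:68805423-68807832 and the Top2a probe within chr11:98857244-98858058, both on the - strand. Their bases are given because neither gene had signal well above background in GFPhigh cells, so that these probes carry the bounds above.
Cdc2a probe: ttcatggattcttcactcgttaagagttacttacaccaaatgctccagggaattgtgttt
Top2a probe: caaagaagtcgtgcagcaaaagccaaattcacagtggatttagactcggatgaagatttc

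Further probes added little. Of 23 genes with several probes, 6 had at least 2 above background in GFPlow cells, 10 had only the most downstream probe, 4 had only an upstream probe and 3 had none. The filter kept 7 probes beyond the representative ones, and 1 of these, the second Kif20a probe, was above background in GFPhigh cells on both arrays, but it shares 33 bases with the first. Another 2 were above background there on 1 array and 4 on neither, so their direction is no support. The 29 probes that were not kept had log2 ratios between -0.68 and 0.06, with a median of -0.07. Sizes differed within Ccnb1, whose 3 probes gave -1.55 ± 0.06, -0.91 ± 0.08 and -0.67 ± 0.08, the smaller 2 from probes not well above background in GFPhigh cells. Mki67 gave -1.73 ± 0.16 on its second probe, which was above background in GFPhigh cells on 1 array. Cdca3 gave -1.08 on each array on its second probe, against -1.96 ± 0.26 on the representative probe. That second Cdca3 probe was also above background in GFPhigh cells on 1 array.

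The size of the differences depended on how dim signals were treated. With the software's own processed signals, which carry no offset, the median of the 34 genes was -2.18, and the 12 genes not above background in GFPhigh cells on either array had a median of -2.50 in place of -0.92. For the 16 genes detected in both populations the medians were nearer, -2.03 in place of -1.86. Kif4 had the lowest processed ratio, -3.01, from a GFPhigh signal that was not well above background. Bub1 turned to 0.12 on this scale.

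**Figure D4:**
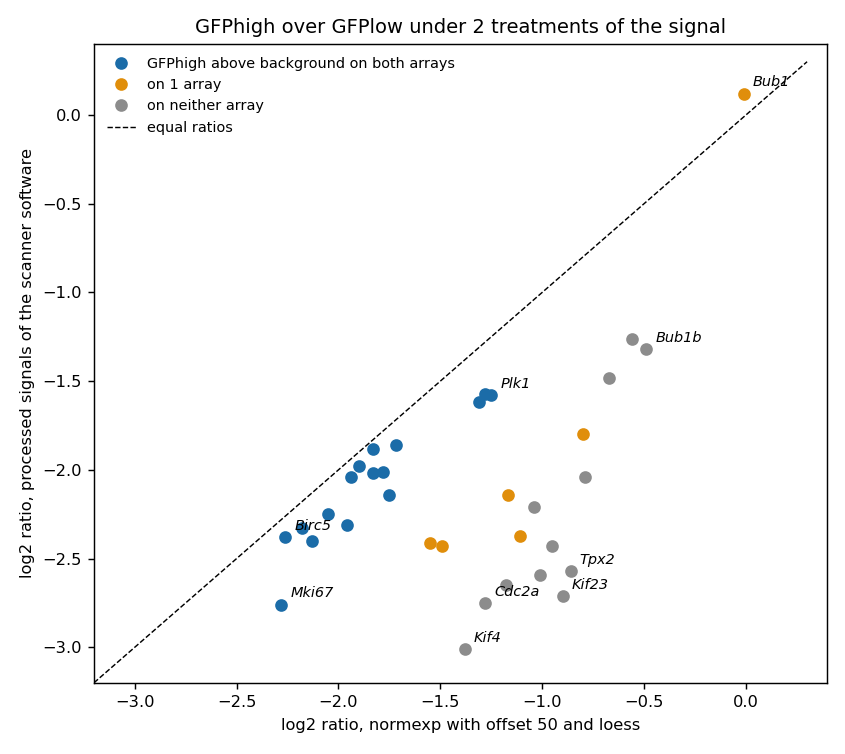
Log2 ratio of GFPhigh over GFPlow for the 34 measured mitotic genes with the offset of 50 (horizontal) and with processed signals (vertical), as means of the 2 arrays. Genes detected in both populations lie near the dashed line of equal ratios, and genes without GFPhigh signal above background, such as Kif4 at -1.38 and -3.01, lie well below it.

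The genes were then set against other genes of the cell cycle. From a list of 86 other mitotic genes on the array, 51 were measured, 12 were called lower and 0 higher, with a median of -0.85. Of the 12, 4 were above background in GFPhigh cells on both arrays, 7 on 1 array and 1 on neither. Among the 25 genes of the list detected in both populations 4 were called lower and the median was -0.42. Of 16 measured further kinetochore genes 0 reached the call, against 2.70% over all genes, and their median was -0.79. In GFPhigh cells 8 of the 27 listed kinetochore genes had a probe above background on array 1 and 7 on array 2. The regulators and the condensin and cohesin genes had 4 called genes each. The 8 genes with the largest absolute ratios were Ncapg (-1.97 ± 0.21), Trip13 (-1.97 ± 0.05), Melk (-1.89 ± 0.31), Sgo1 (-1.88 ± 0.35), Cdkn3 (-1.63 ± 0.05), Cks2 (-1.63 ± 0.51), Ncapd2 (-1.60 ± 0.59) and Smc4 (-1.47 ± 0.62). The first 4 of these were above background in GFPhigh cells on 1 array only. Ncapg, Ncapd2 and Smc4 are condensin subunits, Trip13 disassembles checkpoint complexes, and Sgo1 protects centromeric cohesion.

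A few of these other genes had positive means. Smc1a, a cohesin subunit, gave -0.16 and 1.53 on the 2 arrays, and Pttg1, the securin that holds separase inactive, gave 0.79 and 0.23. Neither was called. Of 39 DNA replication genes on the array 33 were measured, 16 were called lower and 0 higher, with a median of -1.21. Among the 19 of them detected in both populations 12 were called lower and the median was -1.35. Members were 34 of all 7829 measured genes and made up 10.4% of the 211 genes called lower. Of these called members, 3 were above background in GFPhigh cells on 1 array and 3 on neither. Among genes detected in both populations, members were 16 of the 139 called lower. The 100 lowest ratios of all measured genes held 13 members.

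**Figure D5:**
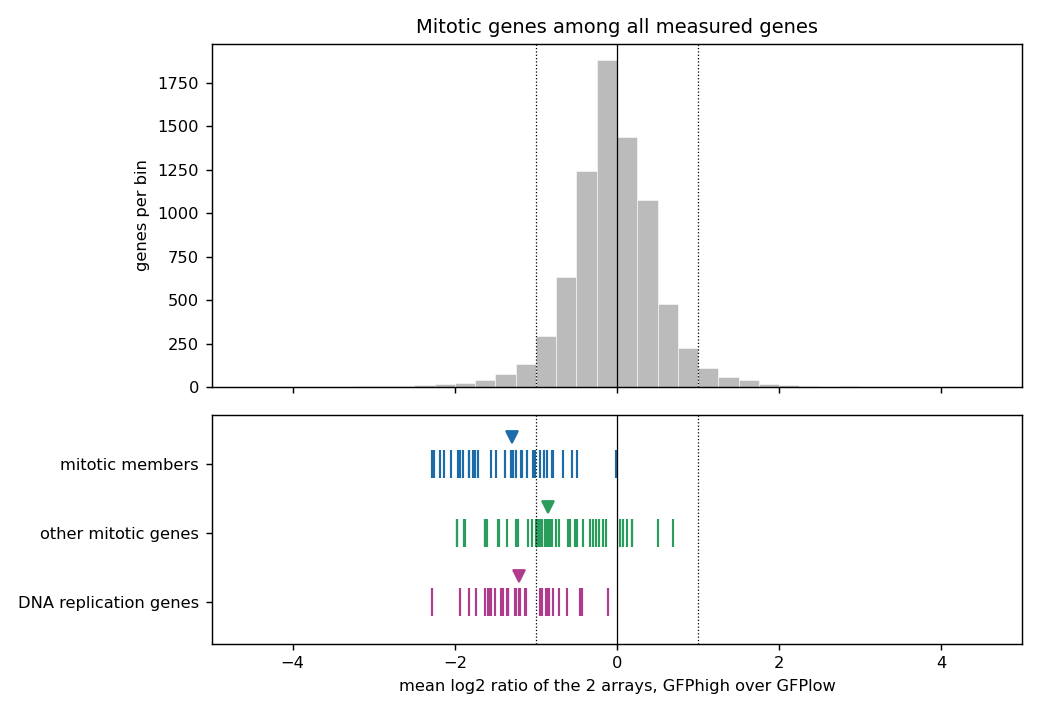
Number of measured genes per bin of the mean log2 ratio, GFPhigh over GFPlow (top, 7829 genes), with each gene of 3 cell cycle lists as a tick on the same axis (bottom). Triangles mark list medians, -1.30 for the 34 mitotic members, -0.85 for 51 other mitotic genes and -1.21 for 33 DNA replication genes, and dotted lines mark 2-fold.

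The centring of the arrays sets where 0 lies. With the median of each array at 0 in place of loess, 215 genes were called lower and 10 higher over all genes, against 211 lower and 138 higher with loess, and the median of all genes was -0.49. With 10 spike-in probes set to 0, 1322 were called lower and 23 higher and the median of all genes was -0.81. Members had medians of -1.83 and -2.08 under these settings, which lie below those medians of all genes, and 0 members were higher under either. The median absolute difference between the 2 arrays was 0.26 for the members, against 0.38 over all genes.

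Markers of other gastric cells moved in the same comparison. All 4 surface mucous markers were called lower in GFPhigh cells, with a median of -2.77 and a summed intensity of 17654.5 and 26264.1 in GFPhigh cells against 252547.6 and 156532.6 in GFPlow cells. Of 5 endocrine markers 4 were called lower, with a median of -1.67 and a summed intensity of 2833.9 and 3609.4 in GFPhigh cells against 17635.2 and 16248.4 in GFPlow cells. Of 5 gland base and chief cell markers 3 were called higher, with a median of 2.72 and a summed intensity of 371834.5 and 603190.4 in GFPhigh cells against 130218.7 and 71199.1 in GFPlow cells. Every marker of these 3 lists on the array was measured. The part of these cell types in the mitotic genes' ratios was not tested.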

How the data were processed

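Pyloric cells sorted by GFP were compared on 2 two-colour Agilent arrays of 1 design. The authors deposited the scanner output, with mean spot intensity and median local background intensity for each channel, processed intensities (background-subtracted, detrended and dye-normalized), a log10 ratio of Cy5 over Cy3 and a single-array p-value, per the file headers. The p-values were not used. The headers name Feature Extraction 10.5.1.1 and the submitters' processing notes 9.5.3. A deposited value table holds the log10 ratios turned to GFPhigh over GFPlow (differences of at most 0.005, column medians 0.0188 and -0.0458), so its scale, direction and centring are settled.

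Background correction of the mean signals (normexp with an offset of 50) and loess within each array, control spots at weight 0, used limma 3.58.1 under R 4.3.3. Flagged spots were left out and 0 gene spots were saturated. Of 41059 probes, 9498 were kept, those whose brighter population exceeded background on each array by the software's flag. Each gene took its kept probe of highest average signal. Log2 ratios were turned by the dyes and averaged, levels came from loess and Aquantile, and bounds compare, over means of log2 levels, the GFPlow mean with the higher of the GFPhigh level and the lowest level above background. The steps were tested on simulated data in which only brighter spots were changed, so changes at dim probes were not tested. Both arrays share 1 slide and 1 scan, and the number of arrays limits the precision.

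Members and lists were chosen with earlier results of these data known. Named were all 42 members, Lgr5, the 8 other mitotic genes of largest absolute ratio, and for the remaining lists counts and ranges, while Smc1a and Pttg1 were named after their values were seen. Alternatives covered background correction, signals, centring, filter, probe rule, threshold, names, bounds, the value table and each array alone.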

Additional observations from a re-analysis of the deposited data

How the results depend on the processing

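The count of 22 mitotic genes lower in GFPhigh cells ran from 16 without background correction to 33 with spike-in centring, and 0 members were higher in any setting tried. Their median of -1.30 was -1.04 without background correction, -1.64 with an offset of 16, -2.21 with processed signals or the value table (33 genes), -1.83 with median centring, -2.08 with spike-in centring, -1.17 without the filter (42 genes), -1.86 for the 16 genes detected in both populations, and -1.46 and -1.38 on a single array. On the members' other kept probes, an alternative chosen after seeing the data, it was -0.96 (6 genes). The count over members detected in both populations (16 of 16) was also added after seeing the data. The count of 211 lower genes was 512 with processed signals, 508 with the value table, 1322 with spike-in centring, 139 for genes detected in both populations, 587 at 1.5-fold, and 397 to 485 on a single array. The median of the other mitotic genes, -0.85, was -0.58 without background correction, -1.14 with an offset of 16, -1.79 with processed signals or the value table, -1.21 with median centring, -1.63 with spike-in centring, -0.52 without the filter and -0.42 for genes detected in both populations. Over single members, 204 of 354 alternative values lay within the spread of the arrays and 150 moved, 127 of them to more negative ratios. Values on a single array cannot leave that spread. Settings that change only the filter or the probe rule often repeat the main value, so the 204 do not measure robustness. Of the 354, 1 lay above 0 (Bub1 on array 2 alone, 0.10). Bub1 at 0.12 with processed signals is not among them, because the filter then left it out. The cause of each shift was not tested. With 1 RNA sample per population the spread between mice is unknown, and GFPhigh signals not well above background give bounds only.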
